A study of Mus musculus with 12 samples.

Results

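Aminoacyl-tRNA synthetases were followed in the liver of mice that ran after a meal. The genes were taken by symbol from the deposited table, 37 of its 17432 genes. Of these, 20 encode cytosolic enzymes, and 17, with symbols that end in 2, encode mitochondrial ones. Livers came from 12 male wild-type (WT) mice of the inbred strain C57BL/6J, 8 to 10 weeks old, in a Sedentary and an Exercise group of 6 each. Both groups were fed by day and fasted by night and got used to the treadmill for 3 days. On day 4, both groups were refed and the food was then removed. The Exercise mice ran for 3 hours at 14 m/min after this meal, while the Sedentary mice did not run. Livers were collected from both groups when the run ended.

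Each synthetase joins an amino acid to the transfer RNA (tRNA) that reads its codons, so the set supplies the charged tRNA that ribosomes use. The enzymes fall into 2 structural classes, I and II. In the cytosol several of them sit in a multisynthetase complex held together by the scaffold proteins Aimp1, Aimp2 and Eef1e1. Mitochondria make a few respiratory chain subunits with tRNAs of their own, charged by nuclear-encoded enzymes that are imported. Gars and Kars, counted here as cytosolic, serve both compartments. Many cytosolic synthetase genes are known targets of ATF4, a factor induced when amino acids run short, and of MYC.

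Whole-liver mRNA was sequenced to between 18745379 and 19324461 counts per library. The labels number the livers but name no mice, so p-values measure the spread between these samples. In bulk RNA, fewer cells of a type and less RNA per cell cannot be told apart. CPM are counts scaled by library size and by the TMM factors described below. Albumin, the main plasma protein made by hepatocytes, stood at 100396 ± 12674 CPM (SD, n = 6) in Sedentary and 118791 ± 7678 CPM (SD, n = 6) in Exercise livers. It was called higher (log2 fold change 0.24, edgeR adjusted p = 0.0253). The other 5 hepatocyte markers were not called, all 6 had log2 fold changes above 0, and their sum ran from 115081 to 155092 CPM in Sedentary and from 139267 to 159913 CPM in Exercise livers. Of 23 tested markers of endothelial, macrophage, stellate, bile duct and blood cells, 2 were called higher and 3 lower after exercise. Of all genes tested, 21.1% were called higher and 21.3% lower. The summed level of these marker lists ran from 646 to 807 CPM in Sedentary and from 607 to 745 CPM in Exercise livers. All 3 tested markers of striated muscle were lower. The 5 markers of that list summed to between 9.63 and 19.7 CPM in Sedentary livers, to 9.79 CPM in Exercise replicate 1 and to at most 0.110 CPM in the other exercised livers. The part of the marker genes in the results was not tested.

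The first question was whether the synthetases moved with exercise. Counts were scaled with TMM factors, which align libraries on genes that differ little, and were tested gene by gene with edgeR's quasi-likelihood test over the 12344 genes with enough counts. A gene is called changed here at a Benjamini-Hochberg adjusted p under 0.05, as 42.4% of all genes tested were. All 37 synthetase genes had enough counts. After exercise 14 of the 20 cytosolic genes fell, where 21.3% of all genes tested were called lower. No cytosolic gene was called higher by edgeR, DESeq2 or limma-voom, and 0 rose at an unadjusted p under 0.05 in any of them. Of the 17 mitochondrial genes, 7 fell and 1, Hars2, rose, where 21.1% of all genes tested were called higher. The median log2 fold change was -0.19 over the cytosolic genes and -0.20 over the mitochondrial ones, against -0.0028 over all genes tested. Fitted changes lay below 0 in 19 of 20 cytosolic and 14 of 17 mitochondrial genes, as in 50.4% of all genes tested. With scaling by library size alone, 16 cytosolic and 10 mitochondrial genes were lower beside 30.3% of all genes, and with limma on log2(FPKM + 0.1), 16 and 11 were beside 30.1%.

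**Figure D1:**
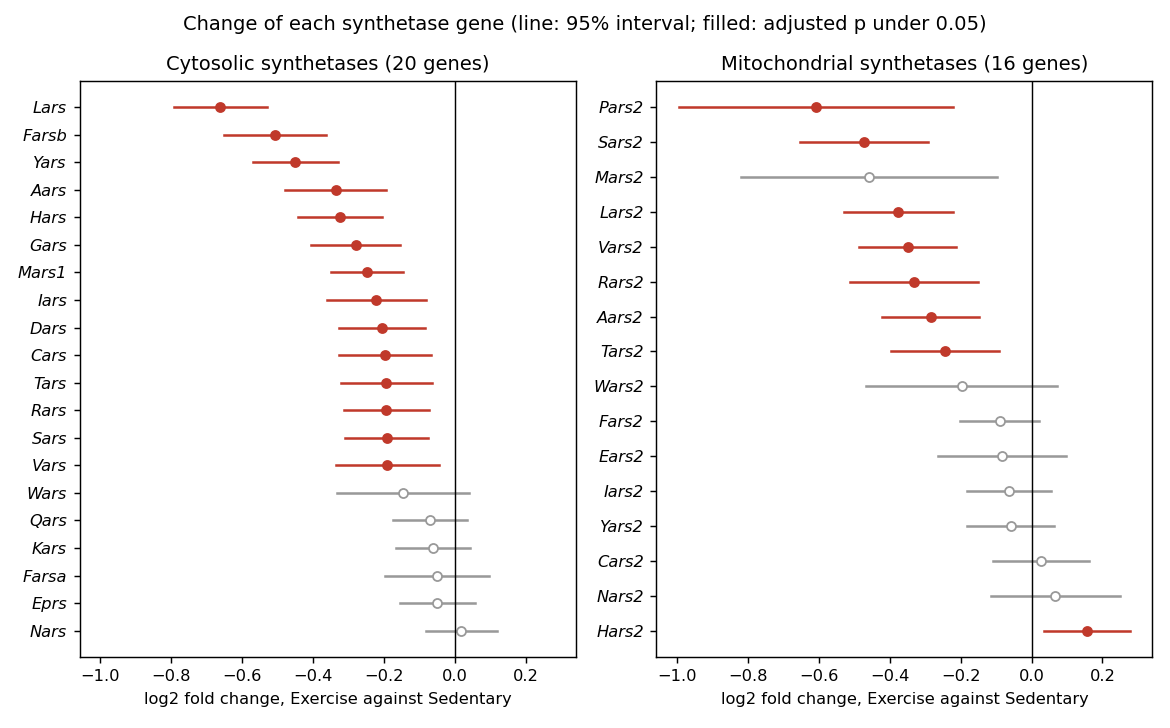
Log2 fold change of the 20 cytosolic and 16 of the 17 mitochondrial synthetase genes, Exercise against Sedentary, with a 95% interval; filled points passed the adjusted p threshold. Changes ran from -0.66 (Lars) to 0.019 (Nars) among cytosolic and from -0.61 (Pars2) to 0.16 (Hars2) among mitochondrial genes.

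The summed level of the family was lower after exercise in both compartments. Over the 20 cytosolic genes it ran from 1079 to 1145 CPM (median 1109) in Sedentary livers and from 905 to 1026 CPM (median 954) in Exercise livers. Over the 17 mitochondrial genes it ran from 253 to 269.5 CPM (median 262) and from 232 to 245 CPM (median 238). In neither sum did the groups overlap. Exercise replicate 1, the exercised liver with muscle markers, had the highest sum of its group in both subgroups. Without it 13 cytosolic and 8 mitochondrial genes were called lower. Exercise replicates 2 and 3 had the lowest sums and were each the lowest exercised liver in 8 of 20 cytosolic genes. With 1 liver left out at a time, 10 to 14 cytosolic genes were called lower, the fewest without Exercise replicate 3.

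**Figure D2:**
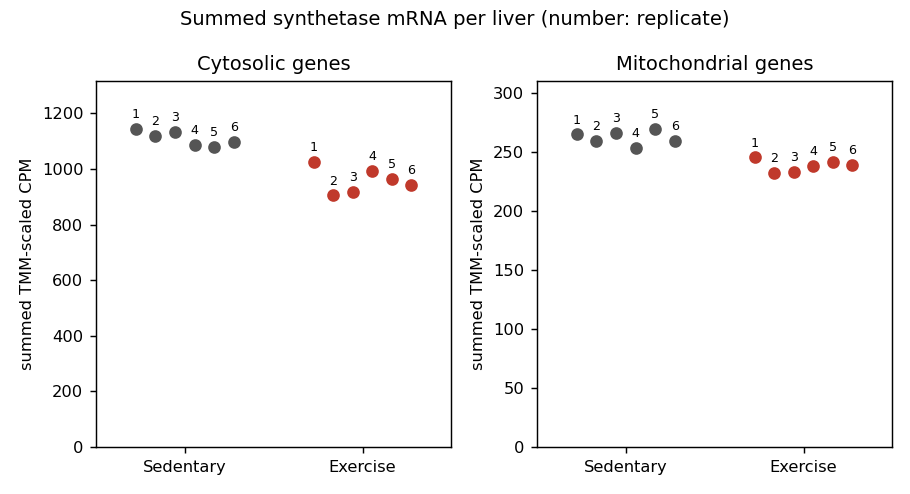
Summed TMM-scaled CPM of the 20 cytosolic (left) and 17 mitochondrial (right) synthetase genes in each liver, numbered by replicate. Every Exercise liver lies below the lowest Sedentary liver in both panels, by a small step on axes that start at 0.

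Levels between genes were compared in FPKM, which is scaled for transcript length. In Sedentary livers Aars, the alanine enzyme, was the most abundant cytosolic member at 71.0 ± 8.79 FPKM (SD, n = 6), followed by Tars, the threonine enzyme, at 59.3 ± 2.46 FPKM. The least abundant cytosolic member was Lars, the leucine enzyme, at 5.47 ± 0.589 FPKM. Mitochondrial levels ran from 0.718 ± 0.122 FPKM for Mars2 to 15.3 ± 1.07 FPKM for Iars2.

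Among cytosolic genes, 8 fell without overlap between the groups, and 10.6% of all genes tested were lower in that way. Lars, on chromosome 18, was at 17.7 to 23.0 CPM (median 20.2) in Sedentary and 12.5 to 13.9 CPM (median 12.8) in Exercise livers. Every exercised liver lay below every Sedentary liver, and the exercised ones lay close together with Exercise replicate 5 the highest. This was the largest cytosolic change (log2 fold change -0.66, SE 0.067, edgeR adjusted p = 7.53e-07).

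Farsb (chromosome 1, 78417958 to 78488897, GRCm38.p6) encodes the beta subunit of the phenylalanine enzyme. It was at 31.8 to 38.9 CPM (median 34.6) in Sedentary and 22.2 to 29.7 CPM (median 23.7) in Exercise livers. Exercise replicate 1 stood above the other exercised livers and still below every Sedentary liver. The change was clear (log2 fold change -0.51, SE 0.073, edgeR adjusted p = 2.83e-05). Its partner Farsa, the catalytic alpha subunit, was at 15.6 to 18.5 CPM (median 17.0) in Sedentary and 13.9 to 18.9 CPM (median 16.5) in Exercise livers. The groups overlapped for Farsa, which passed no threshold (log2 fold change -0.050, 95% interval -0.20 to 0.10, edgeR adjusted p = 0.624).

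Yars (chromosome 4, 129189734 to 129219240), the tyrosine enzyme, was at 27.1 to 32.2 CPM (median 28.5) in Sedentary and 19.1 to 22.8 CPM (median 21.6) in Exercise livers. A gap separated the groups (log2 fold change -0.45, SE 0.061, edgeR adjusted p = 1.68e-05). Aars (chromosome 8, 111027778 to 111055569) was at 206 to 270.3 CPM (median 222) in Sedentary and 167 to 205 CPM (median 179) in Exercise livers. Here the highest exercised liver, replicate 1, came within 1 CPM of the lowest Sedentary liver (log2 fold change -0.34, SE 0.073, edgeR adjusted p = 0.00116). Hars, the histidine enzyme on chromosome 18, was at 37.0 to 43.5 CPM (median 41.6) in Sedentary and 29.9 to 36.5 CPM (median 32.8) in Exercise livers. All exercised livers were again below the Sedentary ones (log2 fold change -0.32, SE 0.061, edgeR adjusted p = 0.000359).

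Gars (glycine), Mars1 (methionine) and Rars (arginine) completed the cytosolic genes without overlap. Gars was at 39.7 to 48.6 CPM (median 43.6) in Sedentary and 32.2 to 38.3 CPM (median 36.8) in Exercise livers (log2 fold change -0.28, edgeR adjusted p = 0.00189). Mars1 was at 46.0 to 52.0 CPM (median 49.7) in Sedentary and 39.1 to 43.6 CPM (median 42.5) in Exercise livers (log2 fold change -0.25, edgeR adjusted p = 0.000861). In both genes the exercised livers lay just under the Sedentary range. Rars was at 24.1 to 29.2 CPM (median 25.4) in Sedentary and 21.4 to 24.0 CPM (median 22.5) in Exercise livers, with groups that nearly touched (log2 fold change -0.19, edgeR adjusted p = 0.0164). Its call was lost without Exercise replicate 5, at a log2 fold change of -0.17. Each of these 8 genes had a two-sided exact permutation p of 0.00216 over 924 relabellings, the smallest p that 6 livers against 6 allow. Any gene without overlap gets this p, so it only restates how these genes were picked.

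The other 6 cytosolic genes that fell were Iars, Dars, Cars, Tars, Sars and Vars, the enzymes for isoleucine, aspartate, cysteine, threonine, serine and valine. Their log2 fold changes lay between -0.22 (Iars) and -0.19 (Vars), and their groups overlapped. In Dars, Cars, Tars, Sars and Vars each of the 6 exercised livers was below the Sedentary median, while Iars in Exercise replicate 1 (44.4 CPM) was above the highest Sedentary liver (44.2 CPM). Without Exercise replicate 3 the calls of Iars and Cars were lost, at log2 fold changes of -0.19 and -0.16. That of Cars was also lost without Sedentary replicate 6 (-0.17). The call of Tars was lost without Sedentary replicate 5 (-0.17) or 6 (-0.18) and without Exercise replicate 2 (-0.14) or 3 (-0.18). Vars had an edgeR adjusted p of 0.0466 and kept its call in 3 of 12 such fits, those without Sedentary replicate 1 or 5 or Exercise replicate 2. In the other 9 its log2 fold change was no further from 0 than -0.20.

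Wars, Qars, Kars, Farsa, Eprs and Nars were not called. Nars, the asparagine enzyme on chromosome 18, was at 80.9 to 88.0 CPM (median 85.8) in Sedentary and 80.1 to 92.4 CPM (median 85.9) in Exercise livers. The groups overlapped throughout, the log2 fold change was 0.019 (95% interval -0.082 to 0.12), and its sign turned with library size, upper quartile or FPKM scaling. Eprs, which joins glutamate and proline activities in 1 chain, was at 78.1 to 90.9 CPM (median 83.2) in Sedentary and 78.4 to 86.8 CPM (median 80.0) in Exercise livers (log2 fold change -0.049, 95% interval -0.16 to 0.057). Both intervals exclude a decrease as large as that of Hars. Wars (tryptophan), Qars (glutamine) and Kars (lysine) had log2 fold changes of -0.15, -0.070 and -0.060.

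**Figure D3:**
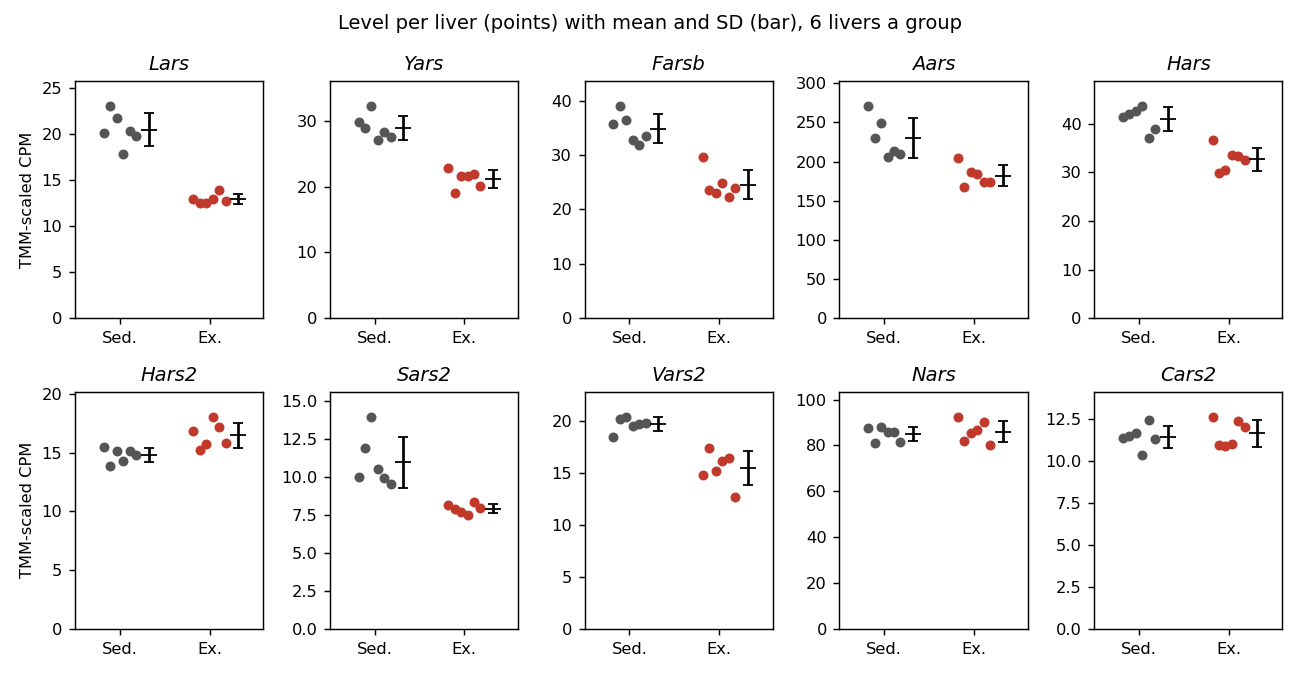
TMM-scaled CPM in each of 6 Sedentary (Sed.) and 6 Exercise (Ex.) livers for 10 synthetase genes, with mean and SD; each vertical axis starts at 0. Lars, Yars, Farsb, Aars, Hars, Sars2 and Vars2 do not overlap between the groups, Hars2 is higher after exercise with some overlap, and Nars and Cars2 overlap widely.

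Genes that fell were found in both enzyme classes and inside and outside the complex. Of 10 cytosolic class I genes, Eprs among them, 7 fell with a median log2 fold change of -0.19, and of 10 class II genes 7 fell with a median of -0.20. Eprs was placed by its glutamate activity alone, although its proline activity belongs to class II. Of the 8 enzymes of the multisynthetase complex 5 fell (Lars, Mars1, Iars, Dars and Rars), with a median of -0.20. Outside the complex 9 of 12 cytosolic genes fell, with a median of -0.19. The scaffold genes Aimp1, Aimp2 and Eef1e1 had log2 fold changes of -0.075, -0.15 and -0.21, and 0 of 3 were called by edgeR, DESeq2 or limma-voom or had an unadjusted p under 0.05.

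Among mitochondrial genes 4 fell without overlap, which makes 12 of 37 synthetases, all of them lower. Of all genes tested, 10.6% were lower in that way, and 22.3% did not overlap in either direction. Sars2 (chromosome 7, 28741957 to 28753879), for serine, was at 9.59 to 13.97 CPM (median 10.3) in Sedentary and 7.49 to 8.36 CPM (median 7.92) in Exercise livers. The exercised livers were tightly grouped below the others (log2 fold change -0.47, SE 0.092, edgeR adjusted p = 0.000499). Vars2, for valine, was at 18.5 to 20.4 CPM (median 19.8) in Sedentary and 12.7 to 17.4 CPM (median 15.7) in Exercise livers. Here it was the Sedentary livers that were tightly grouped (log2 fold change -0.35, edgeR adjusted p = 0.000618).

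Lars2, for leucine, was at 11.7 to 15.6 CPM (median 12.4) in Sedentary and 8.88 to 10.5 CPM (median 10.0) in Exercise livers (log2 fold change -0.38, edgeR adjusted p = 0.000908). Rars2, for arginine, was at 9.62 to 12.4 CPM (median 10.3) in Sedentary and 6.95 to 9.30 CPM (median 8.83) in Exercise livers (log2 fold change -0.33, edgeR adjusted p = 0.00732). All 4 genes had an exact permutation p of 0.00216, which likewise only restates their lack of overlap. Aars2 and Tars2 fell too (log2 fold changes -0.29 and -0.24), with 5 of 6 exercised livers below the lowest Sedentary liver in each.

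Pars2, for proline, had the largest fitted mitochondrial decrease on few reads, with 11 to 41 counts per library. It was at 1.26 to 1.957 CPM (median 1.48) in Sedentary and 0.608 to 1.45 CPM (median 1.05) in Exercise livers. The groups overlapped by 1 exercised liver, replicate 3 (log2 fold change -0.61, SE 0.20, edgeR adjusted p = 0.0189). The call was lost without Exercise replicate 6, at a log2 fold change of -0.49. Mars2, with 20 to 50 counts, had a log2 fold change of -0.46 and just missed the threshold (edgeR adjusted p = 0.0527). It was called lower under 6 of 10 alternatives, at log2 fold changes between -0.55 and -0.46, among them limma-voom, library size scaling and the replicate block (-0.47). It was also called without Sedentary replicate 4 (-0.51) or Exercise replicate 1 (-0.53) or 5 (-0.57).

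Hars2 was the single synthetase called higher and was singled out after its values were seen. It was at 13.8 to 15.5 CPM (median 15.0) in Sedentary and 15.2 to 18.02 CPM (median 16.3) in Exercise livers. Each exercised liver was above the Sedentary median, and the groups overlapped (log2 fold change 0.16, SE 0.062, edgeR adjusted p = 0.0481). The call held in 5 of the 12 fits without 1 liver, those without Sedentary replicate 1 or 5 or Exercise replicate 2, 3 or 6, and was lost under 8 of 10 alternatives, while the direction stayed the same. The log2 fold change was 0.16 with DESeq2, limma-voom, no filter or the replicate block alike, 0.14 with upper quartile scaling, 0.11 from FPKM and 0.061 with library size scaling. In the 7 fits without 1 liver that lost the call it was at most 0.16.

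Of the mitochondrial genes not called, Cars2, for cysteine, was at 10.4 to 12.5 CPM (median 11.5) in Sedentary and 10.9 to 12.6 CPM (median 11.5) in Exercise livers. The groups overlapped widely, and its log2 fold change of 0.026 turned under library size and FPKM scaling. Nars2 had a log2 fold change of 0.067, which turned in the same way, and Yars2, Iars2, Ears2, Fars2 and Wars2 had -0.059, -0.063, -0.084, -0.089 and -0.20.

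For 17 amino acids both a cytosolic and a mitochondrial enzyme gene were measured, which allowed a comparison within each liver. The log2 ratio of the cytosolic to the mitochondrial gene is almost free of the scaling between libraries. It was compared between the groups with 17 two-sided exact permutation tests, adjusted over these 17 ratios. In 7 of them the partners moved differently. The cytosolic side fell relative to its partner for histidine, tyrosine, leucine, cysteine and phenylalanine, and gained on it for serine and proline. For phenylalanine that side is the mean of Farsa and Farsb, and only Farsb was called. Their log2 fold changes were -0.050 and -0.51, beside -0.089 for Fars2.

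The histidine pair moved furthest apart on the cytosolic side. The log2 ratio of Hars to Hars2 was 1.44 ± 0.12 (SD, n = 6) in Sedentary and 0.97 ± 0.078 (SD, n = 6) in Exercise livers, a difference of -0.47 (exact permutation p = 0.00216, adjusted p = 0.0123). Yars to Yars2 differed by -0.38 (exact permutation p = 0.00216, adjusted p = 0.0123). In both pairs each of the 6 exercised livers had a lower ratio than every Sedentary liver. The difference was -0.28 for Lars to Lars2 and -0.19 for the mean of Farsa and Farsb to Fars2 (exact permutation p = 0.00649 and adjusted p = 0.0221 for both). Cars to Cars2 differed by -0.22 (exact permutation p = 0.0108, adjusted p = 0.0263).

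On the other side, the log2 ratio of Sars to Sars2 was higher by 0.25, with each exercised liver above every Sedentary liver (exact permutation p = 0.00216, adjusted p = 0.0123). That of Eprs to Pars2 was higher by 0.40 (exact permutation p = 0.0108, adjusted p = 0.0263). Leucine is thus a pair in which both genes fell and the cytosolic one fell further, and serine a pair in which both fell and the mitochondrial one fell further. For alanine, where both genes fell, the ratio differed by -0.053 (SE 0.085, exact permutation p = 0.53). The call for cysteine was lost without Sedentary replicate 2, 4 or 6 (differences of -0.21, -0.20 and -0.19), and that for proline without Sedentary replicate 1, 2 or 3 (0.40, 0.33 and 0.40). Taken from FPKM, the ratios for phenylalanine and serine kept their direction and did not pass (differences of -0.16 and 0.18, adjusted exact permutation p = 0.105 and 0.0859).

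**Figure D4:**
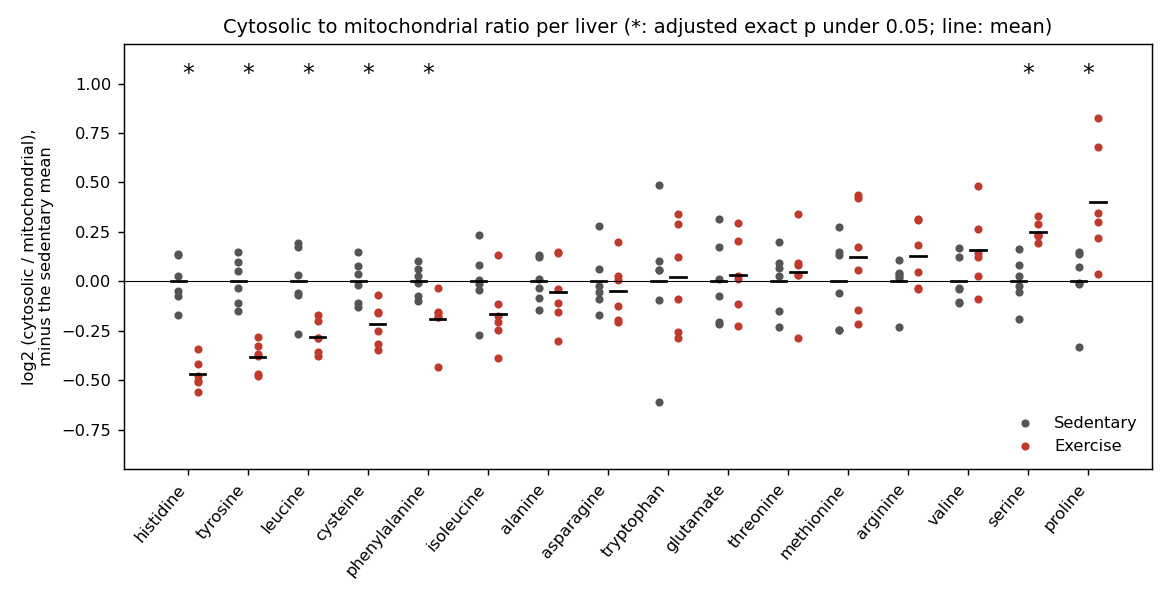
Log2 ratio of the cytosolic to the mitochondrial synthetase gene in each liver for 16 of the 17 amino acids, less the mean of the Sedentary livers; lines are group means and asterisks mark an adjusted exact p under 0.05. The ratio was lower after exercise for 5 marked amino acids, most for histidine at -0.47, and higher for serine (0.25) and proline (0.40).

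Hars and Hars2 lie head to head on chromosome 18 and overlap at their edges. Whether counting used strand is not given in the sources used here, so reads from a shared stretch cannot be told apart. Mars1 overlaps Ddit3 on the opposite strand, and Ddit3, which encodes the stress factor CHOP, rose (log2 fold change 0.29). Farsb overlaps Sgpp2, which was not called (log2 fold change 0.70, edgeR adjusted p = 0.0847), and Aars overlaps Ddx19b (log2 fold change 0.021, edgeR adjusted p = 0.857). Wars overlaps Wdr25, which fell (log2 fold change -0.47, edgeR adjusted p = 0.0472), and Iars2 overlaps Rab3gap2, which rose (log2 fold change 0.17, edgeR adjusted p = 0.0459). Naxd over Cars2 and Lyrm4 over Fars2 were not called (log2 fold changes -0.069 and -0.15).

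The promoters were searched for letters known from regulation of this family. RefSeq windows of 250 bases before to 50 bases after a start site, on GRCm38.p6, matched 27 of the 37 genes, 13 cytosolic and 14 mitochondrial. The motifs were TGATGNAA on both strands, core letters of elements bound by ATF4 with C/EBP proteins, and the palindrome CACGTG, the E-box bound by MYC and other factors. Matches of the motifs did not overlap each other in these genes. TGATGNAA was found in 5 of the 13 cytosolic genes, Aars, Gars, Iars, Tars and Yars, and in 0 of the 14 mitochondrial genes, against 4.51% of all 27025 genes in the promoter table. CACGTG was found in 4 cytosolic genes (Aars, Farsb, Iars and Tars) and 1 mitochondrial gene (Ears2), against 8.09% of all genes. Among the 9920 genes both tested and matched, 2.85% held TGATGNAA and 11.5% held CACGTG.

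All 5 genes with TGATGNAA fell, as did 4 of the 8 cytosolic genes whose window lacks these letters. Over all genes tested and matched, 27.2% of the 283 with TGATGNAA and 21.2% of the 9637 without it were called lower. The 4 cytosolic genes with CACGTG fell, as did 5 of the 9 cytosolic genes without it, while Ears2 was not called. Over all genes tested and matched, 24.7% of the 1144 with CACGTG and 21.0% of the 8776 without it were called lower. A match is a description of the letters and no measurement of binding. In Aars and Yars the start site used for the window lies inside the gene interval given above. The 250 bases before the start are shown for the cytosolic genes in which a motif lies there, read on the gene's strand, with TGATGNAA or its reverse complement and CACGTG in capitals.
Aars, chr8:111033592-111033841, plus strand: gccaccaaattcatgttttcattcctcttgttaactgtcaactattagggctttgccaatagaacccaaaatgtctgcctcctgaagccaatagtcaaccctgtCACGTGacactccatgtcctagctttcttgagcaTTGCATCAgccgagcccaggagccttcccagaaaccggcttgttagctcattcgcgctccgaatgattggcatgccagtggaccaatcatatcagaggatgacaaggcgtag
Gars, chr6:55037751-55038000, plus strand: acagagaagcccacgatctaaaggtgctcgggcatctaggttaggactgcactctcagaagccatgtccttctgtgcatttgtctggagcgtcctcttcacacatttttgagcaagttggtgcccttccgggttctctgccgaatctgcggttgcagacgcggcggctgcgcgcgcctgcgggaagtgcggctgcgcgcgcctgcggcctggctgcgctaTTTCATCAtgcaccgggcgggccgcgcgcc
Tars, chr15:11399659-11399908, minus strand: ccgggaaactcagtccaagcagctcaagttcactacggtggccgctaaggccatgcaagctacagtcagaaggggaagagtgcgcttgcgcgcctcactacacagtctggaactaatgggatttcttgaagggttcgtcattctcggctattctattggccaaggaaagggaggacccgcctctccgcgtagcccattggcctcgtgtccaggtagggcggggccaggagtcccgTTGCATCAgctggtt
Iars, chr13:49681880-49682129, plus strand: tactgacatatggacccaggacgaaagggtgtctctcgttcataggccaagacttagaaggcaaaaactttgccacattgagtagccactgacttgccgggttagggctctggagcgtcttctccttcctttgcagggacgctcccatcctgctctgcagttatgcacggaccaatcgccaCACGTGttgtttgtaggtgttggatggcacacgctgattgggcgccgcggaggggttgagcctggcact
Farsb, chr1:78488898-78489147, minus strand: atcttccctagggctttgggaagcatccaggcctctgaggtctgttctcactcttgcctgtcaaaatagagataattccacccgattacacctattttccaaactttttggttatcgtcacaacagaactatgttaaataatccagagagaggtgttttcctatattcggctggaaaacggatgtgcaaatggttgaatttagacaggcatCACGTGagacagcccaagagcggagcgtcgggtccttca
In Aars, Iars and Yars a TGATGNAA match lies just after the start, and 30 bases around it are shown with the match in capitals.
Aars, chr8:111033840-111033869, plus strand: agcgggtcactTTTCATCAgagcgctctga
Iars, chr13:49682126-49682155, plus strand: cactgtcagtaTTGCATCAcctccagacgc
Yars, chr4:129189895-129189924, plus strand: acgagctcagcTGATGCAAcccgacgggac
Counted from the start site, the match in Tars begins at position -15 and that in Gars at position -30, both near the start, whereas the upstream match in Aars begins at position -112.

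Other genes of tRNA handling were taken from lists written by hand, whose counts stand beside 21.1% of all genes tested called higher and 21.3% called lower. Of 7 genes for editing and synthetase-like enzymes, 3 fell and the other 4 had log2 fold changes between -0.19 and -0.072. Sepsecs, which makes selenocysteine on its tRNA, was at 50.9 to 59.3 CPM (median 54.4) in Sedentary and 37.0 to 45.2 CPM (median 40.7) in Exercise livers, without overlap (log2 fold change -0.42, edgeR adjusted p = 4.09e-05). Dtd2, which removes wrongly attached amino acids, had a log2 fold change of -0.39 and Aarsd1, an editing protein for alanyl-tRNA, one of -0.23. Tarsl2, a cytosolic threonine paralog that the symbol pattern does not take in, had a log2 fold change of -0.11 and was not called.

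Of 22 tested genes for tRNA maturation, 8 fell and 1, Trnt1, which adds the CCA end, rose, so that 9 of 22 were called, near the 42.4% of all genes tested. Pop4, of ribonuclease P, and Rtcb, the tRNA ligase, had log2 fold changes of -0.42 and -0.24, without overlap between the groups. In mitochondria, glutaminyl-tRNA is made by an amidotransferase instead of a synthetase. Its subunits Qrsl1 and Gatc fell (log2 fold changes -0.64 and -0.25), while Gatb (-0.084) and the formyltransferase Mtfmt (-0.23, edgeR adjusted p = 0.0537) did not pass.

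Of 6 cytosolic elongation genes, which use the charged tRNA, 3 rose and 1 fell. Eef2, Eef1d and Eef1a1, which carries charged tRNA to the ribosome, rose (log2 fold changes 0.23, 0.20 and 0.17). The kinase that inhibits EEF2, Eef2k, was at 5.65 to 8.61 CPM (median 7.50) in Sedentary and 3.54 to 5.25 CPM (median 4.29) in Exercise livers and fell, with a log2 fold change of -0.79. Of 6 mitochondrial elongation and initiation genes 3 fell without overlap, Mtif3 (-0.53), Mtif2 (-0.29) and Tsfm (-0.37). Of all genes tested, 10.6% were lower in that way. The other 3, Gfm2 (0.11), Gfm1 (0.091) and Tufm (0.038), were not called. The summed level of this list had a median of 295 CPM in Sedentary and 293 CPM in Exercise livers.

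The genes of the known activators were read from the same fit. Atf4 was at 85.5 to 120.2 CPM (median 98.0) in Sedentary and 78.8 to 90.5 CPM (median 82.9) in Exercise livers and fell (log2 fold change -0.28, edgeR adjusted p = 0.00497). Of 26 tested ATF4 targets outside the synthetases, a list that holds Atf4 itself, 10 rose and 4 fell, where 21.1% and 21.3% of all genes tested did, with a median log2 fold change of 0.14. The smallest p-values belonged to genes that rose, Slc38a2 (an amino acid transporter, 1.47), Cebpb (a liver transcription factor, 1.34) and Herpud1 (an ER stress gene, 1.605). Besides Atf4, the targets that fell were Fgf21 (-1.88), Psat1 (-1.18) and Shmt2 (-0.14). Of these, Fgf21 and Psat1 were scarce, with Sedentary means of 0.99 and 0.71 CPM. Asns, the asparagine synthetase often read as an ATF4 target and named here after its values were seen, was at 1.145 to 4.45 CPM (median 2.79) in Sedentary and 1.48 to 3.36 CPM (median 1.79) in Exercise livers. The groups overlapped (log2 fold change -0.43, edgeR adjusted p = 0.254).

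Of 6 genes for the kinases of the initiation factor eIF2 and their partners, 2 rose and 3 fell. Over all genes tested, 21.1% were called higher and 21.3% lower. Those that fell were Eif2ak2, a kinase that binds double-stranded RNA (-0.48), Eif2s1, the eIF2 subunit that is phosphorylated (-0.29), and Gcn1, a partner of the kinase that senses uncharged tRNA (-0.24). That kinase, Eif2ak4, was not called (log2 fold change -0.16, edgeR adjusted p = 0.172), and the kinases Eif2ak1 (0.20) and Eif2ak3 (0.31) rose. Myc was at 5.15 to 12.7 CPM (median 9.19) in Sedentary and 2.76 to 5.36 CPM (median 3.98) in Exercise livers and fell (log2 fold change -1.23, edgeR adjusted p = 0.00236). Of 10 tested genes of the MYC network, Myc included, 7 rose and 2 fell, beside 21.1% and 21.3% of all genes tested. Mxd1 and Mga, which compete with MYC for its partner MAX, rose by 0.93 and 0.61 on the log2 scale, and Mycl, a MYC paralog, rose by 0.86.

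**Figure D5:**
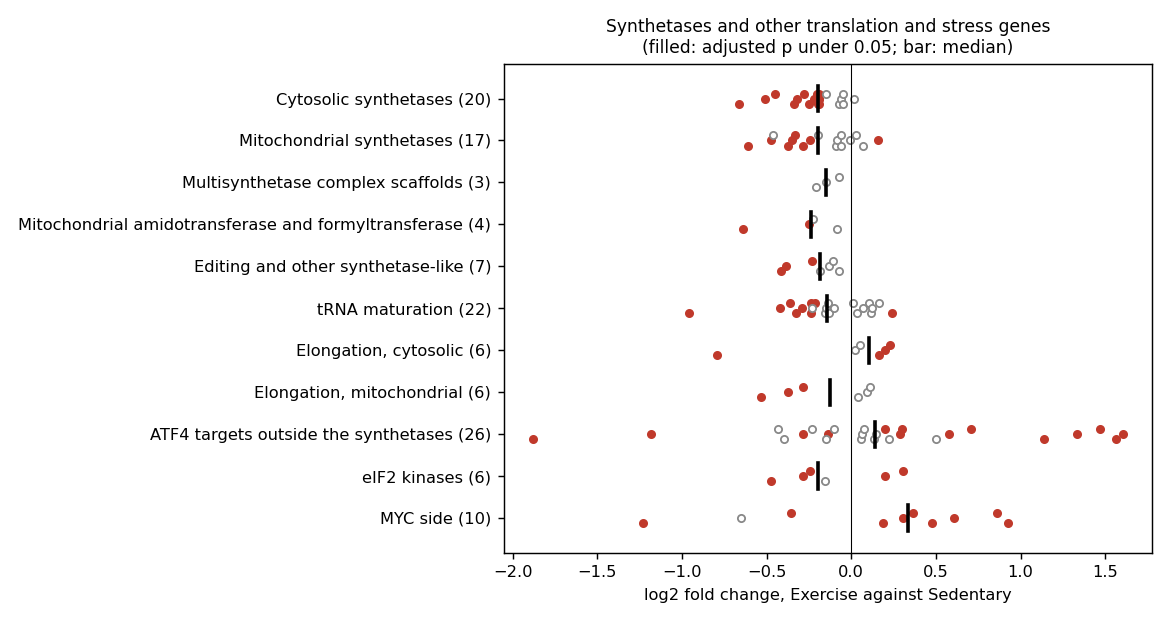
Log2 fold changes of the synthetases and of 9 lists of translation and stress genes, Exercise against Sedentary; filled points passed the adjusted p threshold, bars are medians and the number of genes tested is in brackets. The synthetases lie around medians of -0.19 and -0.20, while the ATF4 targets spread from -1.88 to 1.605.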

How the data were processed

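Liver mRNA libraries of 6 Sedentary and 6 Exercise mice were analysed, grouped by their titles. The deposited table gives an estimated count, not scaled between libraries, and an FPKM value, scaled by the authors for transcript length and depth, for each gene and library. The submitters' processing notes name Bowtie2 2.3.4.3, RSEM 1.3.1 and mm10. Annotation and strand setting are not given in the sources used here. Of the counts 31.3% were not whole, and all were rounded.

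edgeR 4.0.16 (R 4.3.3) was run with TMM factors, filterByExpr at a minimum count of 10 and robust quasi-likelihood, with group as covariate. The biological coefficient of variation came to 11.3%. At these depths counting error is largest for Pars2 (11 to 41 counts), Mars2 (20 to 50) and Wars2 (71 to 122). CPM are TMM-scaled. Exact permutation tests used log2(CPM + 0.5), in Python 3.11.15. DESeq2 1.42.0, limma 3.58.1, other filters and scalings, a replicate block and leaving out each liver were alternatives. On simulated counts for this comparison (12268 genes), edgeR recovered 74.2% of changes of 0.5 and 89.9% of changes of 1 on the log2 scale. Far fewer genes changed in the simulation than were called in the livers. Changes as small as the synthetase medians (-0.19 and -0.20) were not simulated, so recovery at that size is not known.

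Members and gene lists were chosen with earlier results of these data known. By rule, values are given for called members that do not overlap between groups or change by at least 0.5 on the log2 scale (at most 10 cytosolic and 6 mitochondrial), for the 2 uncalled members per subgroup with the smallest change, and for the 3 genes with the smallest adjusted p of each list, Atf4 and Myc. An uncalled mitochondrial member and a gene of tRNA maturation that meet the rule are not reported here. Farsa, Mars2 and the partner genes Tarsl2, Gatb, Trnt1, Eef1a1 and the overlapping protein-coding genes were added for what they are to a member or list. Eif2ak1, Eif2ak3 and Eif2ak4 were added in the same way. Gfm1, Gfm2, Tufm, Fgf21, Psat1 and Shmt2 were added to show the genes of their lists that went the other way.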

Additional observations from a re-analysis of the deposited data

Results flagged for a closer look

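In 74 groups of 6 livers (37 genes in each group of mice), a liver far from the other 5 was looked for by the gap to its neighbour over the whole range of the group. There were 2 such values, where chance gives about 3.7. Farsb in Exercise replicate 1 had 29.7 CPM, above 24.9 CPM in its nearest neighbour (gap over range 0.641). Lars in Exercise replicate 5 had 13.9 CPM, above 12.9 CPM (0.699). Both lay below every Sedentary liver. Without the liver in question, the log2 fold change was -0.57 for Farsb and -0.68 for Lars.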

How the results depend on the processing

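Of 22 synthetase genes called, 12 kept their call and direction under all 10 alternatives and all 12 fits without 1 liver: Lars, Farsb, Yars, Aars, Hars, Gars, Mars1, Sars2, Vars2, Lars2, Rars2 and Aars2. The median of all genes lay at -0.10 with library size scaling and -0.093 with limma on log2(FPKM + 0.1), where 16 cytosolic genes were lower in both and 10 and 11 mitochondrial genes were. Of all calls 32.1% and 31.4% were higher there, against 49.8% with TMM. An adjusted p under 0.01 left 7 cytosolic genes lower by construction. The Hars2 call, 1 mitochondrial gene higher, became 0 without a filter, with upper quartile or library size scaling, DESeq2, limma-voom, FPKM, the stricter threshold and the replicate block. Its log2 fold change was 0.061 with library size and 0.11 with FPKM scaling and between 0.14 and 0.16 in the others. The cause was not tested. Without 1 liver, 10 to 14 cytosolic genes were lower, 6 to 8 mitochondrial genes lower and 0 to 1 higher, and 5 to 8 ratios passed.

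Nars reversed with upper quartile (-0.0021), library size (-0.077) and FPKM (-0.078) scaling, Cars2 with library size (-0.068) and FPKM (-0.050), and Nars2 with both (-0.028 and -0.088). From FPKM, the ratios for asparagine (0.010) and tryptophan (-0.014) reversed. Without 1 liver the ratio for glutamate ran from -0.020 to 0.10, asparagine from -0.10 to 0.0065, threonine from -0.0098 to 0.12 and tryptophan from -0.10 to 0.12.

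Replicate numbers were not taken to pair the mice: same-numbered livers correlated between -0.10 and 0.16 in their deviations from the group means, and 2 of 6 matched best with their own number. The replicate block gave 14 cytosolic genes lower, and 8 lower and 0 higher mitochondrial ones. A sign-flip test over the 6 numbers, whose smallest possible p is 0.03125, called 0 ratios. After adjustment over 17 ratios, none could pass at that smallest p unless most of them reached it. This test therefore cannot decide on single ratios.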

Other observations

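RSEM counts divided by FPKM follow the transcript length behind a gene's count, so a shift between the groups marks counts assigned to longer or shorter transcripts. Among 34 synthetase genes with enough reads, the median size of this shift was 0.0055 on the log2 scale, against 0.0046 over 8378 genes. Hars2 shifted by -0.095 with overlapping groups (two-sided exact permutation p = 0.13, not adjusted), a size that 1.84% of all these genes reached.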
